A study of Mus musculus with 8 samples.

Results

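The transcripts of 10 amino acid transporters of the plasma membrane were followed in the livers of mice that carried the *Rragc* S74N allele and of control mice. The genes were taken by symbol from the deposited table of 14506 genes, and all 10 were found there (*Slc38a2*, *Slc38a3*, *Slc38a4*, *Slc7a2*, *Slc3a2*, *Slc1a2*, *Slc1a4*, *Slc16a10*, *Slc43a1* and *Slc6a13*). With a mean normalized count of at least 10 required for a test, 9 of them were tested and *Slc43a1* was not. RNA came from whole liver of 8 mice, 4 *Rragc* S74N/+ and 4 *Rragc* +/+. In *Rragc* S74N/+ mice 1 allele carries a serine-to-asparagine substitution in RagC, knocked in by gene editing together with silent changes and present in every cell, so no promoter or Cre limits it to hepatocytes. Mice of both genotypes were of the C57BL/6 background and ate standard chow. *Rragc* +/+ replicates 1, 2 and 3 and *Rragc* S74N/+ replicates 1 and 2 were 3 months old, *Rragc* +/+ replicate 4 and *Rragc* S74N/+ replicate 3 were 2.5 months old, and *Rragc* S74N/+ replicate 4 was 2 months old. The sex of the mice is not in the labels.

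Hepatocytes take up amino acids from portal and arterial blood and export others, and carriers of several families share this work. Sodium-coupled carriers can concentrate their substrates inside the cell, whereas exchangers and facilitative carriers move one amino acid against another or down a gradient. Amino acids inside the cell are sensed upstream of the Rag GTPases, which bring the kinase complex mTORC1 to the lysosome, and RagC is one of these GTPases. Amino acid shortage also raises the transcription of several transporter genes through the factor ATF4, and lysosomal genes are driven by factors of the TFEB family, which mTORC1 holds in the cytoplasm.

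Promoter sequence was read for the members to show where elements of these 2 kinds of factor lie. RefSeq promoters on GRCm38.p6 were found for 8 of the 10 genes, with 12 promoters in all, and *Slc38a3* and *Slc7a2* had no entry. The window from 250 bases before the start to 50 bases after it was searched on both strands for CACGTG, the core of the element bound by the TFEB family, and for TTGCATCA, the element of ATF4 with C/EBP factors. Neither motif overlaps the other. CACGTG lay in 1 of the 12 promoters, that of *Slc43a1*, 64 bases before the start, and 7.15% of the 32851 promoters of the genome held it. TTGCATCA lay in 1 of the 12, that of *Slc1a4*, where it began 4 bases before the start and ran across it, and 0.895% of all promoters held it. These matches describe letters only. The last 120 bases before the start are printed below 5′ to 3′ for both of these genes and for *Slc38a2*, the member whose genotypes did not overlap, with the motif in capitals. For *Slc1a4* the run goes on for 4 bases past the start to complete the motif, and the *Slc38a2* window held neither motif.
*Slc1a4* (chr11:20332710-20332833, reverse strand): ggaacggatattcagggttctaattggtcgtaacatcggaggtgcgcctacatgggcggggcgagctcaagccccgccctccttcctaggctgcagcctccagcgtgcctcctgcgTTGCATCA
*Slc43a1* (chr2:84840203-84840322, forward strand): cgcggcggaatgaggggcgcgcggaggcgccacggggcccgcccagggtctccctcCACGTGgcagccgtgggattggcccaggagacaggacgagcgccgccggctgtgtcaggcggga
*Slc38a2* (chr15:96699729-96699848, reverse strand): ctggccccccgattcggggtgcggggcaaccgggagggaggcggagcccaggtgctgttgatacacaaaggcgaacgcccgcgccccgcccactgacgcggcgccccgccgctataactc

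Sequencing covered only the 3′ ends of transcripts, so reads do not scale with transcript length. Levels of different genes are set side by side here as read counts, and how well the 3′ end of each gene was captured was not measured. Values are normalized read counts, that is, reads divided by the size factor of the library. Reads recovered in listed genes ranged from 4313076 to 6632108 per liver, and no pair of libraries looked like a single library entered again (chi-square per degree of freedom from 16.15 to 112 over 28 pairs). *Rragc* itself was at 63.7 to 112 in *Rragc* +/+ and 69.3 to 84.7 in *Rragc* S74N/+ livers, a level that does not check the labels because the allele is a substitution. Hepatocyte markers (7 of 8 listed) summed to between 258712 and 468696 in every liver. Of the other cell types, Kupffer cell, sinusoidal endothelial, stellate, cholangiocyte, neutrophil and erythroid marker sums overlapped between genotypes, and none of the 8 pancreatic acinar markers was listed. Single markers within these sums differed. At an unadjusted limma p under 0.05, 3 of 10 Kupffer cell and 2 of 8 endothelial markers were higher in *Rragc* S74N/+ livers. Of 7 tested stellate markers 1 was higher (*Col1a1*) and 1 lower (*Ecm1*) by this limit, which 5.17% of all tested genes passed. Every *Rragc* S74N/+ liver was above every *Rragc* +/+ liver for *Marco*, and below for *Ecm1*, *Colec11* and the erythroid *Alas2*. Genotypes did not overlap for 2.94% of all tested genes, in either direction. Lymphocyte markers summed to 69.2 to 135 in *Rragc* +/+ and 152 to 230.1 in *Rragc* S74N/+ livers, and without *Igkc* the other 6 summed to 22.4 to 57.0 and 20.1 to 62.0. In whole liver, fewer cells of a type and less RNA per cell cannot be told apart.

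To ask whether transporter transcripts differed by genotype, log2(normalized count + 1) was compared over all 11174 tested genes with limma, and p-values were adjusted by the Benjamini-Hochberg method over all of them. None of the 9 tested members had an adjusted p under 0.05, against 1 gene or 0.00895% of all tested genes. At an unadjusted p under 0.05 limma passed 1 of the 9, *Slc38a2*, where 5.17% of all tested genes passed. The count tools gave 2 of 9 at an unadjusted p under 0.05, *Slc38a2* and *Slc7a2*, both with edgeR (5.53% of all tested genes) and with DESeq2 (6.04%), and 0 of 9 after adjustment (0.00895% of all tested genes with edgeR and 0.0895% with DESeq2). The log2 fold changes of *Rragc* S74N/+ over *Rragc* +/+ were above 0 for 7 of the 9 and below 0 for 2, from -0.83 to 0.85 with a median of 0.09, beside a median of 0.01 over all tested genes. Genotypes did not overlap for 1 of the 9, which was higher in *Rragc* S74N/+, where 2.94% of all tested genes did not overlap in either direction and 1.3% did so with *Rragc* S74N/+ higher.

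The sodium-coupled neutral carriers of the Slc38 family supply hepatocytes with small amino acids. *Slc38a2* (chromosome 15 of GRCm38, 96687392 to 96699730, reverse strand) encodes SNAT2, a system A carrier of alanine, serine and other small neutral amino acids, known for its rise when amino acids are short. In the order of the replicates, here and for the genes that follow, its normalized count was 378, 395, 252 and 411 in the *Rragc* +/+ group and 582, 462, 468 and 719 in the *Rragc* S74N/+ group. All 4 *Rragc* S74N/+ livers were above every *Rragc* +/+ liver, and the closest pair was 411 against 462. The group levels were 359 ± 72.6 and 558 ± 121 (SD, n = 4 each), a ratio of 1.55. The log2 fold change was 0.64 ± 0.23 (SE), with a 95% interval from 0.15 to 1.13 (limma unadjusted p = 0.0151, adjusted p = 0.846). The exact two-sided permutation p was 0.0286, the smallest that the 70 labellings of 4 against 4 livers allow. Among 3-month-old mice the fold change was 0.63, with the 2 *Rragc* S74N/+ livers again above the 3 *Rragc* +/+ livers, and without *Rragc* S74N/+ replicate 4 it was 0.51. The unadjusted p of *Slc38a2* was under 0.05 in 7 of 8 fits with a liver omitted, and rose to 0.0509 in limma without *Rragc* +/+ replicate 3, its lowest liver.

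*Slc38a3* (chromosome 9, 107650634 to 107669530, reverse strand) encodes SNAT3, the system N carrier that moves glutamine, histidine and asparagine in either direction across the hepatocyte membrane. It was at 1807, 1949, 1689 and 1187 in *Rragc* +/+ and 2022, 1709, 1391 and 3934 in *Rragc* S74N/+ livers. The 2-month-old *Rragc* S74N/+ replicate 4 stood alone at the top, and the other 7 livers lay between 1187 and 2022 with the genotypes mixed. The log2 fold change of 0.35 ± 0.29 (SE, 95% interval -0.28 to 0.99, limma adjusted p = 0.846) fell to 0.05 without that liver and was 0.04 among 3-month-old mice.

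*Slc38a4* (chromosome 15, 96994820 to 97055956, reverse strand) encodes SNAT4, a liver-rich system A carrier. It was the most abundant member, at 3264, 3188, 2619.8 and 2651 in *Rragc* +/+ and 2517, 2438, 3254 and 4205 in *Rragc* S74N/+ livers. Replicates 1 and 2 of *Rragc* S74N/+ were the 2 lowest of all livers and replicate 4 the highest, so both ends of the range were *Rragc* S74N/+. Over all livers the log2 fold change was 0.05 (95% interval -0.41 to 0.52, limma adjusted p = 0.962). It turned to -0.28 among 3-month-old mice, to -0.077 with age as a covariate and to -0.10 without *Rragc* S74N/+ replicate 4.

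*Slc7a2* (chromosome 8, 40862396 to 40922308, forward strand) encodes CAT2, a carrier of the cationic amino acids arginine, lysine and ornithine, which feed or leave the urea cycle. Its values were 746, 648, 1081 and 1078 in *Rragc* +/+ and 1035, 826, 1911 and 2245 in *Rragc* S74N/+ livers. The 2 youngest *Rragc* S74N/+ livers, replicates 3 and 4, were well above the rest, while the 3-month-old *Rragc* S74N/+ livers lay within the *Rragc* +/+ range. The group levels were 888 ± 224 and 1504 ± 682 (SD, n = 4 each). The log2 fold change was 0.68 ± 0.31 (SE), with a 95% interval from -0.0024 to 1.35 (limma unadjusted p = 0.0507, adjusted p = 0.846). With counts as input the unadjusted p was 0.0300 in edgeR and 0.0215 in DESeq2, and the adjusted p 0.812 and 0.707. The fold change was 0.20 among 3-month-old mice, 0.36 with age as a covariate and 0.44 without *Rragc* S74N/+ replicate 4, and age and genotype cannot be told apart for that liver because no *Rragc* +/+ mouse was 2 months old.

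**Figure D1:**
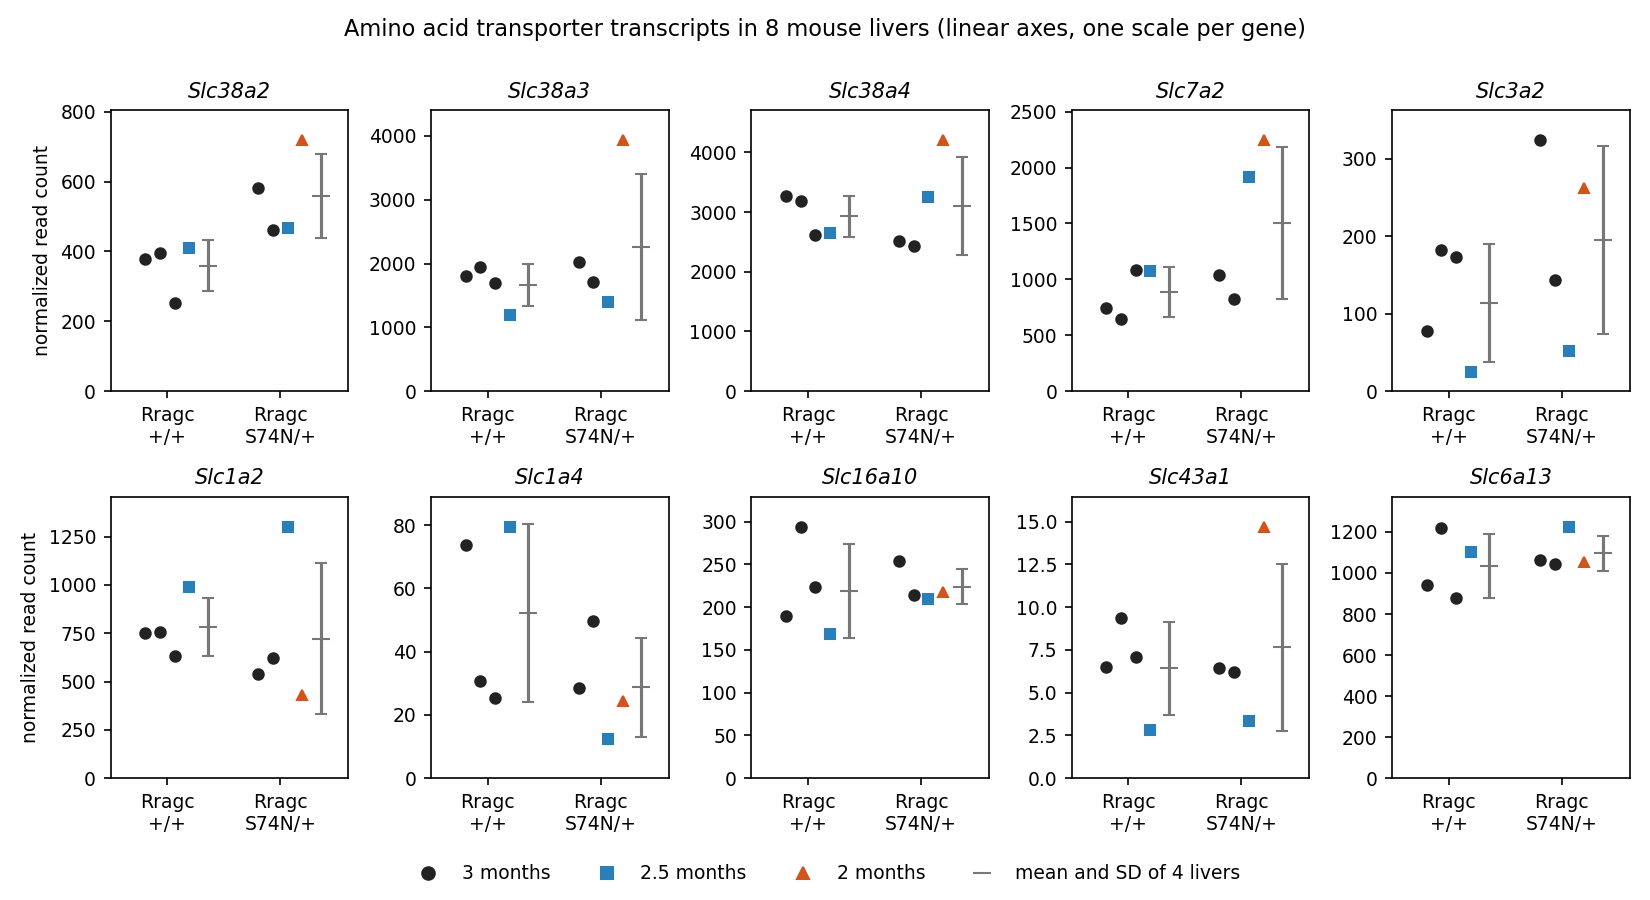
Normalized read count (linear axis, one scale per gene) of the 10 transporters in each liver by *Rragc* genotype, with age shown by symbol and colour, and the mean and SD of 4 livers as a grey bar. The *Rragc* S74N/+ livers lie above all *Rragc* +/+ livers for *Slc38a2* (462 to 719 against 252 to 411), and in the other 9 panels the genotypes overlap.

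*Slc3a2* (chromosome 19, 8706882 to 8723369, reverse strand) encodes the heavy chain 4F2hc (CD98), which carries no amino acid itself and brings the light chains of the Slc7 family to the membrane. It was the most variable member, at 77.4, 182, 173 and 24.3 in *Rragc* +/+ and 324, 143, 52.4 and 262 in *Rragc* S74N/+ livers. The highest liver was 13.3-fold above the lowest, on 26 to 353 reads, and 96.3% of all tested genes had a smaller SD within genotype on the log2 scale. The 2.5-month-old liver of each genotype was its lowest. The log2 fold change was 0.85 ± 0.64 (SE, 95% interval -0.53 to 2.22, limma adjusted p = 0.846), which did not exceed the spread between livers. It fell to 0.24 without *Rragc* +/+ replicate 4 and was 1.37 without *Rragc* S74N/+ replicate 3, so its size rested in part on the livers of 2.5-month-old mice.

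The 3 tested genes whose centred log2 values lay closest to those of *Slc3a2* over the 8 livers were *Clptm1l*, with a mean absolute difference of 0.13, *Cpox*, the coproporphyrinogen oxidase of haem synthesis (0.14), and *Dag1*, dystroglycan (0.16). *Clptm1l* was at 60.6, 129, 151 and 24.3 in *Rragc* +/+ and 323, 116, 41.2 and 222 in *Rragc* S74N/+ livers. As with *Slc3a2*, its highest liver was *Rragc* S74N/+ replicate 1 and its lowest the 2.5-month-old *Rragc* +/+ liver. The 3 genes were picked for likeness over these same livers, so this match follows from the choice. *Cyp2e1*, a pericentral cytochrome P450 named after its values were seen, was also lowest in both 2.5-month-old livers, at 902 and 1485, and highest in *Rragc* S74N/+ replicate 1, at 6796. Of the other pericentral genes read, *Gulo* and *Cyp2c29* also lay below the range of the 3-month-old livers in both. *Lect2* lay above that range (1141 and 869 against 522 to 760), and the rest lay on neither side of it in both livers. Of all tested genes 12.9% lay below it in this way, and a link of *Slc3a2* to zonation was not tested.

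**Figure D2:**
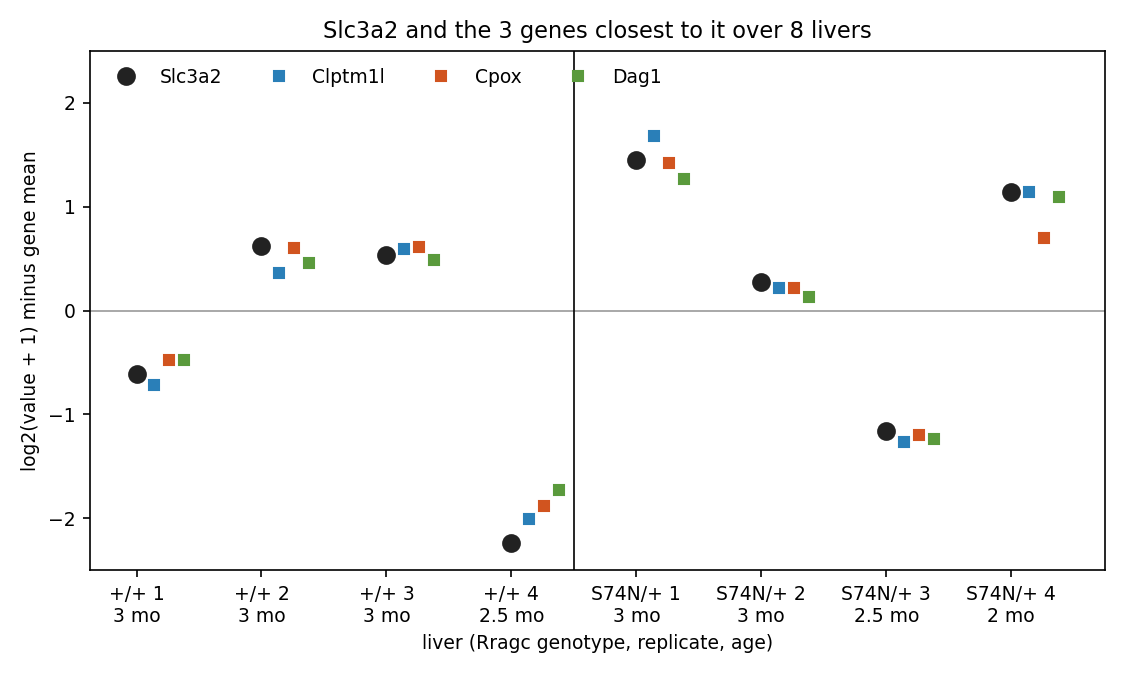
Centred log2(value + 1) of *Slc3a2* and of the 3 genes closest to it, in each liver, with 0 as the mean of each gene over 8 livers. In each of the 8 livers the 4 genes lie on the same side of 0, lowest in *Rragc* +/+ replicate 4 (-2.24 for *Slc3a2*) and highest in *Rragc* S74N/+ replicate 1 (1.44 for *Slc3a2*). The 3 genes were picked for this likeness over the same livers, so the match follows from the choice.

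Light chains that pair with 4F2hc were scarce. Of the 6 such genes looked up, 3 were in the table, *Slc7a5* (LAT1), *Slc7a7* (y+LAT1) and *Slc7a8* (LAT2), and their summed count was 11.3 to 17.8 in *Rragc* +/+ and 27.9 to 58.7 in *Rragc* S74N/+ livers. The ratio of *Slc3a2* to this sum ran from 1.44 in *Rragc* +/+ replicate 4 to 15.25 in *Rragc* +/+ replicate 3, and from 1.88 to 6.66 in *Rragc* S74N/+ livers. Heavy chain reads thus outnumbered those of the listed light chains in all 8 livers, and the ratios of the genotypes overlapped.

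Among the Slc1 carriers, *Slc1a2* (chromosome 2, 102658659 to 102790784, forward strand) encodes the glutamate transporter GLT-1, which in liver is found in hepatocytes around the central vein. Its values were 753, 756, 632 and 991 in *Rragc* +/+ and 538, 619, 1299 and 432 in *Rragc* S74N/+ livers. Both 2.5-month-old livers were above the other 6, and the remaining *Rragc* S74N/+ livers were below all *Rragc* +/+ livers. The log2 fold change of -0.23 ± 0.30 (SE, 95% interval -0.88 to 0.42, limma adjusted p = 0.874) was -0.56 without *Rragc* S74N/+ replicate 3, -0.03 without *Rragc* S74N/+ replicate 4 and -0.30 among 3-month-old mice.

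*Slc1a4* (chromosome 11, 20302180 to 20332713, reverse strand) encodes ASCT1, an exchanger of alanine, serine, cysteine and threonine. It was at 73.6, 30.9, 25.5 and 79.4 in *Rragc* +/+ and 28.5, 49.8, 12.3 and 24.5 in *Rragc* S74N/+ livers, on 11 to 85 reads. Its log2 fold change was the most negative among the members, -0.83 ± 0.48 (SE, 95% interval -1.86 to 0.20, limma unadjusted p = 0.106, adjusted p = 0.846). *Rragc* +/+ replicates 1 and 4 were high and replicates 2 and 3 lay among the *Rragc* S74N/+ livers. Among 3-month-old mice the difference was -0.04, and it ranged from -1.14 to -0.50 when each liver was left out in turn.

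Facilitative carriers and the GABA carrier complete the 10 genes. *Slc16a10* (chromosome 10, 40033532 to 40142258, reverse strand) encodes TAT1, which lets aromatic amino acids leave or enter down their gradient. It was at 189, 294, 224 and 168 in *Rragc* +/+ and 254, 214, 209.5 and 218 in *Rragc* S74N/+ livers, and the *Rragc* S74N/+ values lay inside the *Rragc* +/+ range. Its log2 fold change was 0.06 (95% interval -0.42 to 0.54, limma adjusted p = 0.959) and became -0.053 without *Rragc* +/+ replicate 4.

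*Slc6a13* (chromosome 6, 121300227 to 121337733, forward strand) encodes GAT2, a sodium- and chloride-coupled carrier of GABA and taurine. It was at 939.7, 1220.5, 877 and 1103 in *Rragc* +/+ and 1065, 1042, 1224 and 1056 in *Rragc* S74N/+ livers, the narrowest range among the members. Its highest liver was less than 1.5-fold above its lowest, and 2.91% of all tested genes had a smaller SD within genotype. The log2 fold change was 0.09 with a 95% interval from -0.30 to 0.49 (limma adjusted p = 0.917), so a change of the size seen for *Slc38a2* lay outside this interval.

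*Slc43a1* (chromosome 2, 84838850 to 84863594, forward strand) encodes LAT3, a facilitative carrier of large neutral amino acids. It was the scarcest member, at 6.53, 9.35, 7.07 and 2.80 in *Rragc* +/+ and 6.43, 6.22, 3.34 and 14.7 in *Rragc* S74N/+ livers, counted from 3 to 18 reads per liver. At its mean depth counting error alone amounts to 36.5% of the level. Without the filter on low counts its log2 fold change was 0.15 (limma unadjusted p = 0.803), and a difference was not detectable at this depth.

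**Figure D3:**
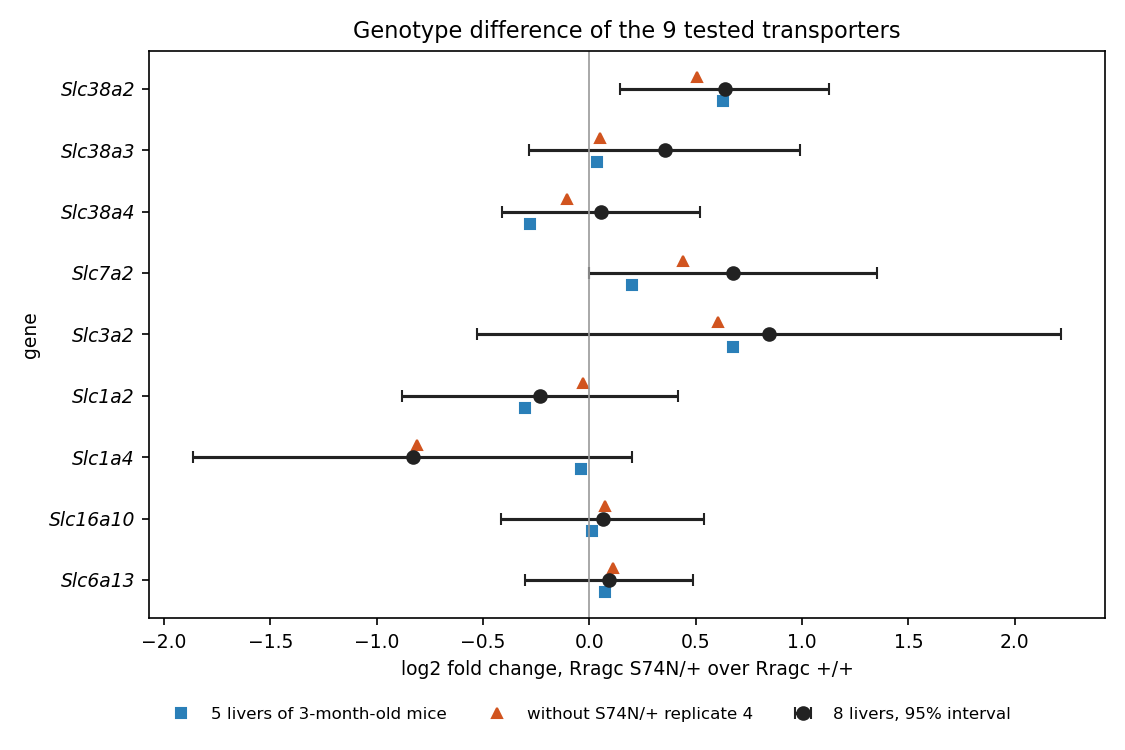
Log2 fold change of *Rragc* S74N/+ over *Rragc* +/+ for the 9 tested transporters, with 95% intervals over 8 livers (black), the value among 3-month-old mice (blue squares) and the value without *Rragc* S74N/+ replicate 4 (orange triangles). The interval of *Slc38a2* (0.15 to 1.13) lies above 0 before adjustment, the other 8 intervals hold 0, and *Slc38a4* changes sign with the livers used.

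The members spanned more than 2 orders of magnitude in level. Averaged over the 8 livers, *Slc38a4* (3017) stood above *Slc38a3* (1961), *Slc7a2* (1196), *Slc6a13* (1066), *Slc1a2* (753), *Slc38a2* (458), *Slc16a10* (221), *Slc3a2* (155), *Slc1a4* (40.5) and *Slc43a1* (7.05). Each of the 9 neighbouring pairs was compared within livers by an exact two-sided sign-flip permutation test of the log2 difference. *Slc38a4* exceeded *Slc38a3* in 8 of 8 livers (mean log2 difference 0.69, adjusted exact p = 0.0234), and *Slc38a2* exceeded *Slc16a10* in 8 of 8 (1.01, adjusted exact p = 0.0234). *Slc7a2* and *Slc6a13* were not separated, since *Slc7a2* was higher in 3 of 8 livers only (mean log2 difference 0.05, SD 0.62, adjusted exact p = 0.867). The steps from *Slc1a2* to *Slc38a2*, from *Slc16a10* to *Slc3a2* and from *Slc3a2* to *Slc1a4* missed the threshold (adjusted exact p = 0.0527 each), with the higher gene leading in 6, 6 and 7 of 8 livers. The remaining steps passed it.

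The 10 genes together took 0.124% to 0.173% of the reads in 7 livers and 0.242% in *Rragc* S74N/+ replicate 4. That liver held the highest value of 5 of the 10 members (*Slc38a2*, *Slc38a3*, *Slc38a4*, *Slc7a2* and *Slc43a1*) and of 4 of the 9 tested, where 17% of all tested genes peaked there. It also held the lowest value of *Slc1a2*. *Rragc* +/+ replicate 4 held the lowest value of 4 members, *Slc38a3*, *Slc3a2*, *Slc16a10* and *Slc43a1*. The summed count of *Slc38a2*, *Slc38a3* and *Slc38a4* was 4250 to 5532 in *Rragc* +/+ livers, 4609 to 5120.3 in *Rragc* S74N/+ replicates 1 to 3 and 8857 in *Rragc* S74N/+ replicate 4.

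Other gene groups moved with the same liver. Of the fasting-raised genes (10 of 11 listed, *Pdk4* at 0 in at least 1 liver) the summed level was 5347 to 7005 in *Rragc* +/+ livers, and 13474, 6645, 5542 and 13886 in the 4 *Rragc* S74N/+ livers, with 5 of 10 highest in replicate 4. Periportal hepatocyte genes (12 of 12 listed) summed to 25481 to 30260 in *Rragc* +/+ livers, to 26584 to 30280 in *Rragc* S74N/+ replicates 1 to 3 and to 55472 in replicate 4, where 10 of the 12 were highest. *Cyp2f2*, also periportal, was lowest there (5939). *Pck1* and *Sds*, both highest in replicate 4, were counted in the fasting-raised and the periportal sums alike. Pericentral hepatocyte genes summed to 17692 to 25212 in *Rragc* +/+ livers, and to 28255, 20946, 18892 and 17319 in the 4 *Rragc* S74N/+ livers. Male-biased liver genes (10 of 10 listed) summed to 72396 to 81562 in *Rragc* +/+ livers, to 34892 to 62226 in *Rragc* S74N/+ replicates 1 to 3 and to 17785 in replicate 4. *Slc38a2*, *Slc38a3*, *Slc38a4* and *Slc7a2* were thus at their highest in the liver in which periportal genes were high and male-biased genes low. *Slc38a2* was also next highest in *Rragc* S74N/+ replicate 1 (582), the liver with the other high fasting-raised sum. The part of nutritional state, sex, zonation or age in the transporter values was not tested.

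**Figure D4:**
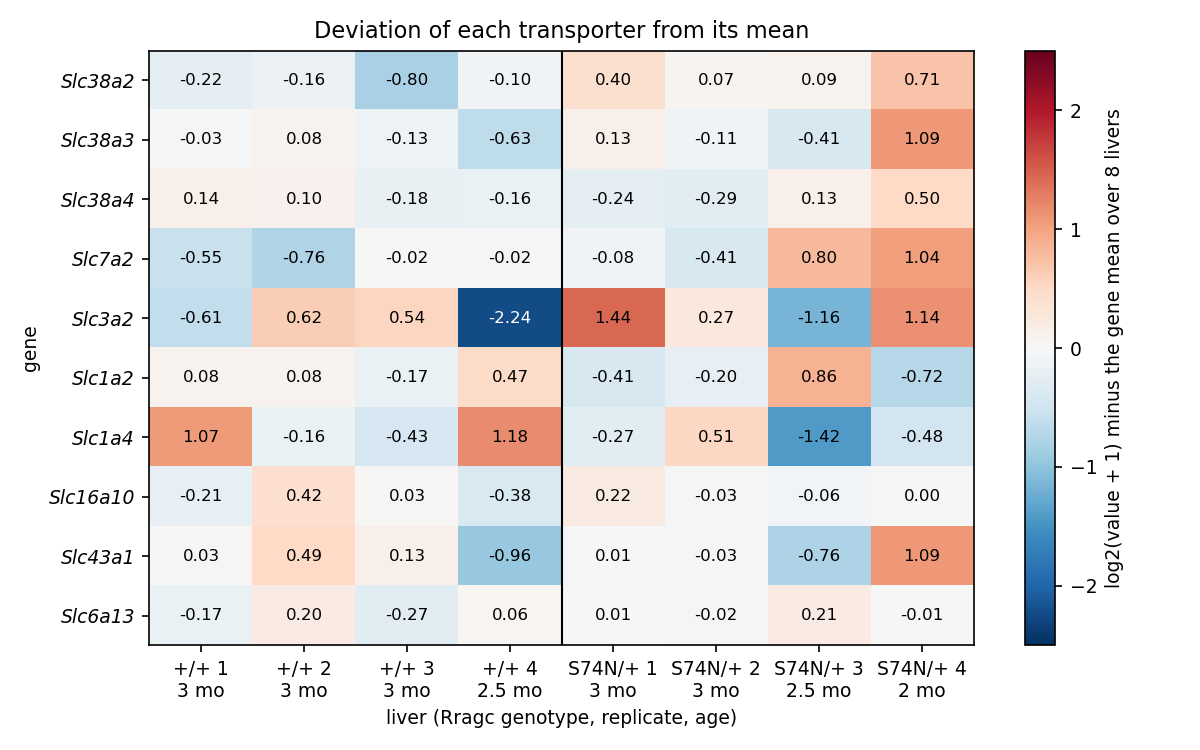
Deviation of log2(value + 1) from the mean over 8 livers for each transporter (rows) and liver (columns, with genotype, replicate and age), in colour and as printed values, with the black line between genotypes. *Rragc* S74N/+ replicate 4 is above the mean for 6 of the 10 genes, by 1.14 for *Slc3a2*, 1.09 for *Slc38a3*, 1.04 for *Slc7a2* and 0.71 for *Slc38a2*, while *Rragc* S74N/+ replicate 2 deviates by at most 0.51.

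Age was also looked at across genotypes. In both 2.5-month-old livers, 1 of each genotype, *Slc38a3* (1187 and 1391) and *Slc3a2* (24.3 and 52.4) lay below the range of the 5 livers of 3-month-old mice (1689 to 2022 and 77.4 to 324), and *Slc1a2* (991 and 1299) lay above it (538 to 756). These were 2 of 9 tested members lower and 1 of 9 higher, where 12.9% and 11.3% of all tested genes lay outside that range in the same way. Within 3-month-old mice the genotypes did not overlap for 3 of the 9 tested members, *Slc38a2*, which was higher in *Rragc* S74N/+, and *Slc38a4* and *Slc1a2*, which were lower. *Slc43a1*, not tested, was also lower there, by a narrow gap (6.53, 9.35 and 7.07 against 6.43 and 6.22). With 3 livers against 2, 10.2% of all tested genes were separated with *Rragc* S74N/+ higher and 11.4% with *Rragc* S74N/+ lower.

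Among 31 other plasma membrane amino acid transporters looked up, 16 were listed and 11 tested, and none of the 11 passed adjustment. With limma at an unadjusted p under 0.05, 2 were higher in *Rragc* S74N/+ livers and 0 lower (3 passed with edgeR and 4 with DESeq2), where 5.17%, 5.53% and 6.04% of all tested genes passed in either direction. The fold changes had a median of 0.07 with 8 above 0 and 3 below. *Slc6a6*, the taurine transporter TauT, was at 407, 323, 504 and 488 in *Rragc* +/+ and 836, 599.9, 535 and 932 in *Rragc* S74N/+ livers. Every *Rragc* S74N/+ liver was above every *Rragc* +/+ liver, as for *Slc38a2*, and the log2 fold change was 0.74 ± 0.23 (SE, 95% interval 0.23 to 1.24, limma unadjusted p = 0.00776, adjusted p = 0.846). Its 2 highest livers, *Rragc* S74N/+ replicates 4 and 1, were those with the highest fasting-raised sums, whose part in the *Slc6a6* values was not tested.

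*Slc7a7*, the y+LAT1 light chain that exchanges cationic for neutral amino acids, was at 13.1, 8.42, 4.24 and 13.1 in *Rragc* +/+ and 27.5, 20.4, 21.2 and 24.5 in *Rragc* S74N/+ livers, on 3 to 30 reads. The genotypes did not overlap, with a log2 fold change of 1.29 ± 0.47 (SE, 95% interval 0.27 to 2.30, limma unadjusted p = 0.0168, adjusted p = 0.846). *Slc36a4*, a proton-independent carrier of proline and tryptophan, was also separated, at 8.39 to 13.1 against 16.5 to 31.8 on 7 to 39 reads, with a log2 fold change of 0.87 (95% interval -0.06 to 1.81, limma unadjusted p = 0.0652, adjusted p = 0.846). Of the 11 tested genes 3 were thus separated with *Rragc* S74N/+ higher, where 1.3% of all tested genes were, and none with it lower. *Slc7a7* is also expressed by macrophages. Kupffer cell markers (10 of 10 listed, none at 0 in any liver) summed to 3029 to 4771 in *Rragc* +/+ and 3056 to 5069 in *Rragc* S74N/+ livers. At an unadjusted limma p under 0.05, 3 of the 10 (*Marco*, *Adgre1* and *C1qc*) were higher in *Rragc* S74N/+ livers and 0 lower, where 5.17% of all tested genes passed in either direction. *Marco* was separated like *Slc7a7*, at 20.5 to 25.5 against 37.9 to 125. The log2 fold changes were above 0 for 7 of the 10 markers and below 0 for 3, *Csf1r* (-0.38), *Clec4f* (-0.37) and *C1qa* (-0.07). The part of these markers in the *Slc7a7* values was not tested.

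*Slc3a1*, the heavy chain rBAT, and *Slc7a8* were named after their values were seen. *Slc3a1* was at 18.6, 38.3, 22.6 and 16.8 in *Rragc* +/+ and 64.3, 28.4, 20.1 and 185 in *Rragc* S74N/+ livers (log2 fold change 1.13, 95% interval -0.11 to 2.38, limma adjusted p = 0.846), and the fold change was 0.52 without *Rragc* S74N/+ replicate 4. *Slc7a8*, too low to be tested, was at 0.93 to 4.24 in *Rragc* +/+ and 15.6, 5.33, 3.34 and 33.4 in *Rragc* S74N/+ livers, on 1 to 41 reads. Both genes were highest in replicate 4 and next highest in replicate 1 of *Rragc* S74N/+, the livers with the 2 highest fasting-raised sums. Several of these transporters are abundant in kidney tubules. Kidney markers (5 of 10 listed, of which *Slc34a1*, *Slc12a1*, *Slc12a3* and *Miox* were at 0 in at least 1 liver) summed to 88.8 to 202 in *Rragc* +/+ and to 21.2 to 61.5 in *Rragc* S74N/+ livers. Without *Kap* the other 4 summed to 13.1 to 38.3 and 1.78 to 26.6, which overlap, and their part in the transporter values was not tested.

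**Figure D5:**
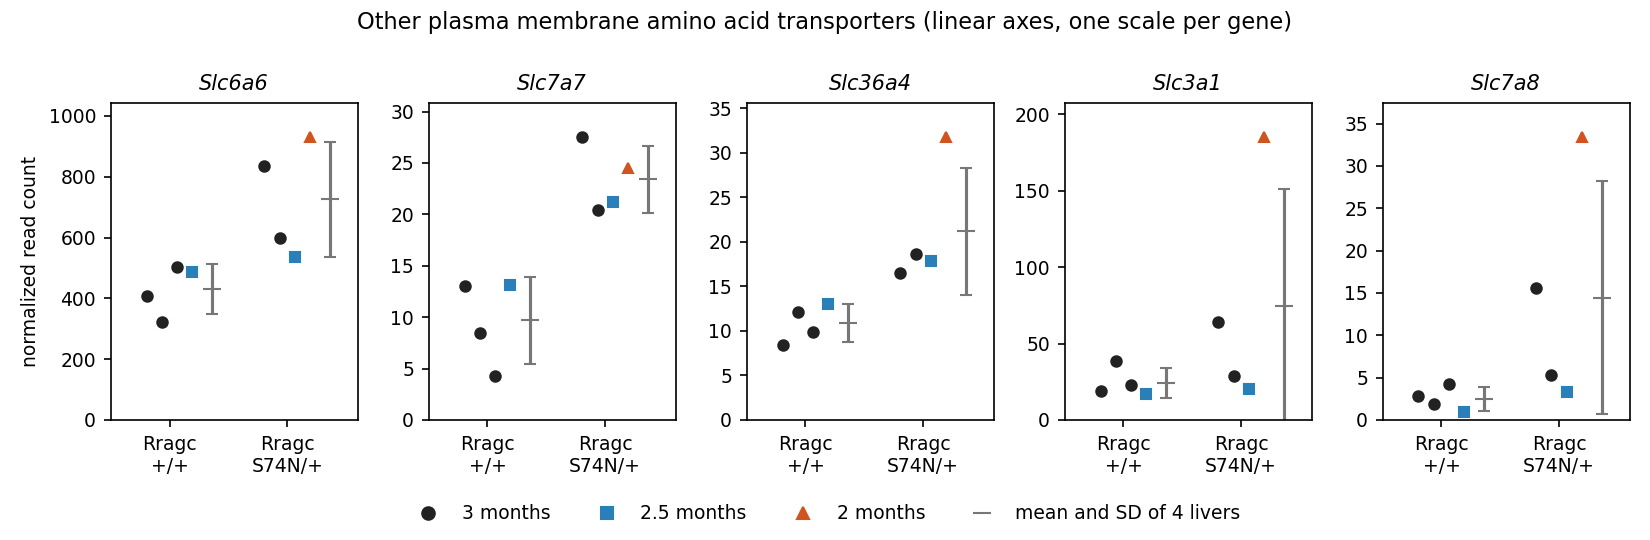
Normalized read count (linear axis, one scale per gene) of 5 other transporters by liver and *Rragc* genotype, with age shown by symbol and colour and the mean and SD of 4 livers in grey, where the SD bar of *Slc3a1* in *Rragc* S74N/+ is cut at 0. *Slc6a6*, *Slc7a7* and *Slc36a4* are separated by genotype, while *Slc3a1* and *Slc7a8* overlap and peak in the 2-month-old liver (185 and 33.4).

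Carriers that pass amino acids on into mitochondria were looked up next, and of 9 such genes 7 were listed and tested. None passed adjustment or an unadjusted p under 0.05 in limma (1 did the latter with edgeR and 0 with DESeq2), with fold changes above 0 for 3 and below 0 for 4. The unadjusted threshold was passed by 5.17%, 5.53% and 6.04% of all tested genes with limma, edgeR and DESeq2. *Slc25a22*, a mitochondrial glutamate carrier, was at 30.8, 37.4, 76.4 and 0.93 in *Rragc* +/+ and 272, 39.99, 13.4 and 268 in *Rragc* S74N/+ livers (log2 fold change 1.97, 95% interval -0.41 to 4.36, limma adjusted p = 0.846). As with *Slc3a2*, its lowest liver in each genotype was the 2.5-month-old one. *Slc25a15*, the ornithine carrier of the urea cycle, was at 1043 to 1315 in *Rragc* +/+ and 1170.1 to 2175 in *Rragc* S74N/+ livers, highest like *Slc7a2* in replicate 4 (log2 fold change 0.36, limma adjusted p = 0.846). *Slc25a29*, a carrier of basic amino acids, had a log2 fold change of -0.90 (95% interval -2.68 to 0.89, limma adjusted p = 0.852).

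Since ATF4 drives several transporter genes, including *Slc38a2*, *Slc3a2* and *Slc1a4*, genes of the amino acid response were read beside them. Of 15 listed genes 14 were in the table and 12 tested, and none passed adjustment or an unadjusted p under 0.05 in limma (1 did the latter with edgeR and 1 with DESeq2). Of all tested genes 5.17%, 5.53% and 6.04% passed the unadjusted threshold with limma, edgeR and DESeq2. The fold changes were above 0 for 7 and below 0 for 5, with a median of 0.08. *Atf4* transcript was at 2974, 1645, 1129 and 2145 in *Rragc* +/+ and 1341, 1412, 1403 and 886 in *Rragc* S74N/+ livers (log2 fold change -0.58, 95% interval -1.19 to 0.03, limma unadjusted p = 0.0591, adjusted p = 0.846), although ATF4 is set mainly by translation. *Chac1*, a glutathione-degrading target of ATF4, had a log2 fold change of 1.07 (95% interval -0.53 to 2.67) and *Asns*, asparagine synthetase, one of 0.93 (95% interval -0.57 to 2.43), both with a limma adjusted p of 0.846. The genotypes overlapped for all 12, where 2.94% of all tested genes were separated in either direction.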

How the data were processed

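RNA from 8 livers was sequenced from the 3′ end with QuantSeq. Per the methods of the study and the submitters' processing notes, the authors checked reads with FastQC 0.11.7, aligned them to GRCm38 with TopHat2 2.0.10, Bowtie 1.0.0 and SAMtools 0.1.19, counted them by strand per gene with HTSeq 0.6.1 against GENCODE, and used DESeq for scaling. The deposited signal is a normalized count per gene and liver. Every value (100%) was a whole multiple of 1 read within 0.001, so whole reads were recovered. These are reads in listed genes, each with at least 6 reads in all, and not the full depth. Without molecular identifiers a read is not an independent molecule. Strand counting keeps reads of antisense genes apart from those of members.

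Groups came from the labels. Replicate numbers only name livers, and nothing says how the mice were bred or sampled together. The 10 genes, all lists and the tests were chosen with earlier results of these data known. Genotype entered limma 3.58.1 (R 4.3.3) as the only term (trend, log2(normalized count + 1), mean of at least 10, 11174 genes, Benjamini-Hochberg 0.05), which understates changes of low genes. edgeR 4.0.16 (quasi-likelihood) and DESeq2 1.42.0 on recovered reads, and the settings named in the closing section, were alternatives, and the scripts were tested on simulated data. Named from the lists were genes past adjustment or else the 3 with the smallest p. The 3 genes most like the most variable member were taken by mean absolute difference of centred log2 values. Gene positions are those of GENCODE M21 on GRCm38, which held 14458 of the listed symbols, and promoters are RefSeq's on GRCm38.p6.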

Additional observations from a re-analysis of the deposited data

Results flagged for a closer look

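Within groups of 4 livers, the highest and lowest value of each member and of their share of reads were compared with Dixon's limit. *Slc6a13* in *Rragc* S74N/+ replicate 3, at a normalized count of 1224, stood apart from the other 3 livers of its genotype, which lay between 1042 and 1065. The highest *Rragc* +/+ liver was at 1220.5. Of 22 groups examined 1 was marked in this way, where about 1.1 would be by chance.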

How the results depend on the processing

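With 10 other settings (pseudocounts of 0.1 and 5, no filter, a minimum mean of 50, TMM rescaling, limma without the trend, age as a covariate, 3-month-old mice only, edgeR and DESeq2) and with each of 8 livers left out in turn, 0 of the members passed adjustment. Over all tested genes the count past the threshold was 1, became 0 in limma without the trend, with age as a covariate and among 3-month-old mice only, was 10 with DESeq2, and was 0 to 2 with single livers omitted. Of the 9 tested members 7 kept the sign of the fold change in all of these fits. *Slc38a4* turned from 0.05 to -0.28 among 3-month-old mice, to -0.077 with age as a covariate and to -0.10 without *Rragc* S74N/+ replicate 4 (-0.10 to 0.16 over the omitted livers), and *Slc16a10* turned from 0.06 to -0.053 without *Rragc* +/+ replicate 4 (-0.053 to 0.21). The cause was not tested. *Slc38a2* ran from 0.48 to 0.72 with a liver left out and from 0.53 to 0.64 under the other settings, with an adjusted p (limma, edgeR or DESeq2) of 0.26 or more, and *Slc7a2* ran from 0.44 to 0.92 and from 0.20 to 0.77. *Slc1a4* gave no value under a mean of at least 50, and *Slc43a1* gave one only without a filter. No paired analysis was possible because numbers assigned in sample order do not pair mice. Depth limited *Slc43a1*, *Slc7a7*, *Slc36a4* and *Slc7a8*, which had at most 41 reads in a liver.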
